A study of Mus musculus with 8 samples.

Results

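Potassium channel genes were examined in pancreatic beta cell samples of C57BL/6 mice fed a chow control diet or a high-fat diet. Members were the array probes whose gene name begins with Kcn, goes on in lower-case letters and ends in a number, and that the scanner software marked as well above background on at least 4 of the 8 arrays. Of 139 such probes on the array, for 92 genes, 87 probes for 64 genes met this condition, out of 26076 probes kept in all. The control group held 4 samples labelled control diet and the other group 4 samples labelled high-fat diet, described as biological replicates, each on its own 1-colour Agilent array. Neither the length of the diet, the age or sex of the mice, nor the way the cells were isolated is given in the sources used here. Because the labels do not say whether a replicate is 1 animal or a pool, the spread between arrays is the only measure of error.

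Potassium channels let potassium ions leave the cell and so pull the membrane voltage down. In the beta cell the ATP-sensitive channel, built from the pore Kcnj11 and the sulfonylurea receptor Abcc8, closes when glucose is metabolised, which depolarises the membrane, opens calcium channels and releases insulin. Voltage-gated and calcium-activated channels then end each action potential, and 2-pore channels carry a background leak current. The family also holds silent subunits, which form channels only together with other subunits, and accessory subunits, which form no pore but set the gating or traffic of the channels they bind.

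On every array 43020 spots measured transcripts, none of them saturated, and the share well above background ran from 63.6% to 68.6%. Signal levels are given as log2 of the processed intensity minus the array's 75th percentile, so 0 is the 75th percentile of that array, and a level is compared only with the same probe's level on other arrays. The arrays lay on 2 slides with 2 arrays of each diet on each slide. Control arrays occupied positions 1 and 3 and high-fat arrays positions 2 and 4 of both slides, so that position and diet cannot be told apart. All 10 beta cell markers examined (Ins1, Ins2, Iapp, Pdx1, Mafa, Nkx6-1, Ucn3, Slc2a2, G6pc2 and Slc30a8) were kept. Markers of other cells were present as well: 7 of 8 alpha cell markers, 6 of 6 delta and PP cell markers and all 7 acinar markers that have a probe on the array were kept. The channel signals are therefore those of the whole sample, and in such bulk samples fewer cells of a type and less RNA per cell cannot be told apart.

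Detection differed between the subfamilies. Of 17 Kv channel genes (Kcna to Kcnd, the classical voltage-gated pores) 16 were kept, of 8 ether-a-go-go genes (Kcnh) 7, and of 14 genes for 2-pore channels (Kcnk) 11. Among the inward rectifiers (Kcnj) 9 of 15 were kept, and among calcium- or sodium-activated channels (Kcnma, Kcnn, Kcnt and Kcnu) 6 of 8. Subfamilies were formed by symbol prefix, so the name of this last group need not describe Kcnu1. Accessory subunits (Kcnab, Kcne, Kcnip and Kcnmb) gave 9 of 15 and KCNQ channels 3 of 5. Silent Kv subunits (Kcnf, Kcng, Kcns and Kcnv) were detected least often, with 3 of 10 genes. Of the 52 probes left out, 44 were well above background on no array and 8 on 1 array, so no probe lay between 1 and 4 arrays. The genes without a kept probe include the calcium-activated channel Kcnn1, the stretch-sensitive 2-pore channel Kcnk2, the inward rectifiers Kcnj1 and Kcnj2, Kcnq5 with 3 probes, and the accessory subunits Kcne1, Kcne2 and Kcnab2. For these the design's probes were not well above background, which sets no level for the gene. The kept probes closest to the condition were those of Kcng3 and Kcns3, on 4 arrays each, with control levels of -4.63 ± 0.34 and -5.79 ± 0.93 (SD, n = 4). Just outside it were 8 probes on 1 array, among them those of Kcnj16 and Kcnj8 with control levels of -5.38 ± 1.04 and -6.53 ± 1.23. No kept probe was well above background in 1 diet only.

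The comparison asked how channel expression differed between the diets. Kcnh8, Kcnk3, Kcnn2, Kcnip3, Kcnj12, Kcnd2 and Kcnab1 had lower signal after the high-fat diet, with all 4 high-fat samples below the controls. These are 7 of the 8 genes counted as lower. Their log2 differences ran from -0.92 for Kcnj12 to -0.30 for Kcnab1, which is a 1.89-fold and a 1.23-fold lower signal. The genes with higher signal at the same unadjusted threshold were Kcnk1, Kcns3 and Kcnip2. Of these, Kcns3 met the filter with 1 control and 3 high-fat arrays, mainly through the diet where it is higher. Its place in the count of higher genes is therefore no separate support. None of the 64 genes passed at an adjusted p under 0.05 in limma, where the share over all genes was 0%, and the smallest adjusted p was 0.287, for Kcnh8. At an unadjusted p under 0.05, 8 of the 64 genes (12.5%) were lower and 3 (4.69%) higher, against 3.25% lower and 2.51% higher over all 19994 genes. For the same 8 genes the diets did not overlap, with high-fat samples below, and for 1 gene, Kcnk1, they did not overlap with high-fat samples above. These are 12.5% and 1.56% of the members, against 1.68% and 1.78% of all genes.

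The median difference of the family was small, and its sign depended on the processing. Of the 64 genes 39 (60.9%) had a difference below 0, against 49.8% of all genes. The median difference was -0.10, against 0.0009 over all genes, and the pooled SD between arrays of one diet in the median level of the family was also 0.10. That SD is the spread of single arrays, not the error of the difference. The median difference was 0.016 with normexp background correction without smeared spots and 0.39 with the planned normexp correction. It was 0.0079 without control replicate 3. By subfamily the median was -0.37 for the inward rectifiers, -0.25 for the 3 silent Kv subunits, -0.17 for the accessory subunits and -0.16 for the Kv channels. It was -0.048 for the calcium- or sodium-activated channels, -0.044 for the ether-a-go-go channels and 0.030 for the 2-pore channels. All of these changed by more than the spread between arrays with the planned normexp correction, where every subfamily listed here as below 0 came out above 0.

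**Figure D1:**
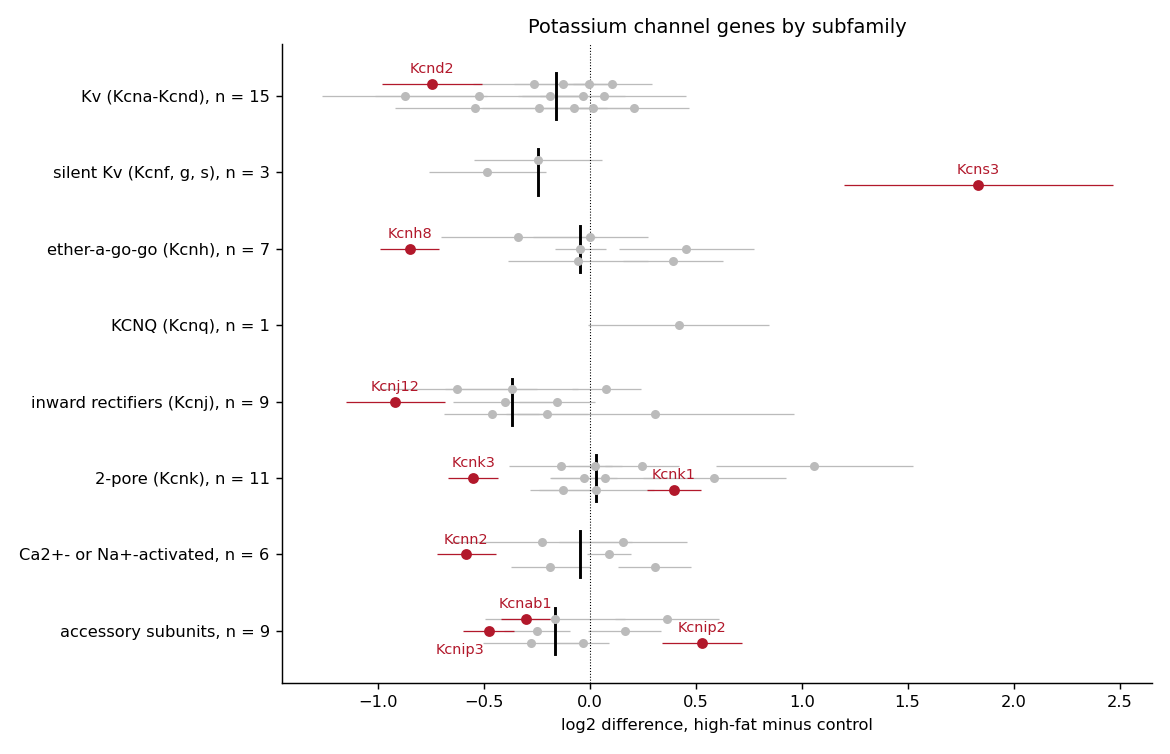
Log2 difference, high-fat minus control, for 61 of the 64 potassium channel genes (points, with the SE as a bar), grouped by subfamily on the vertical axis with the number drawn; black lines are medians over all kept genes of a subfamily, drawn where it has more than 1 point. The 10 genes in red had an unadjusted p under 0.05, 7 of them to the left of 0 and 3 to the right, and none passed after adjustment over all probes.

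The inward rectifiers hold the pore of the ATP-sensitive channel. Kcnj11 levels in control replicates 1 to 4 were 0.27, 0.15, -0.33 and -0.083, and in high-fat replicates 0.079, -0.14, -0.039 and -0.52. The diets overlapped, and the log2 difference was -0.16 ± 0.18 (SE), with a 95% interval from -0.57 to 0.25. A further Kcnj11 probe, about 1 kb away, differed by -0.31 ± 0.25. Its partner Abcc8, the regulatory receptor of the same channel, differed by 0.068 ± 0.15 and was well above background on all 8 arrays. The largest difference of the subfamily was that of Kcnj12, a strong inward rectifier that holds the resting voltage. Kcnj12 stood at -0.54, -0.68, -0.73 and -0.67 in the control samples and at -0.99, -1.83, -1.32 and -2.14 in the high-fat samples. The groups did not overlap, and the high-fat samples were the more spread, with an SD of 0.51 against 0.080. The difference was -0.92 ± 0.24 (adjusted p = 0.586). Kcnj5 and Kcnj6, pores of the channels that G proteins open, differed by -0.46 ± 0.22 and -0.37 ± 0.31, and their diets overlapped. Kcnj13 had probes at -0.63 ± 0.37 and -0.43 ± 0.20, Kcnj4 differed by -0.40 ± 0.24, Kcnj10 by -0.20 ± 0.19 and Kcnj15 by 0.078 ± 0.16. In all, 7 of the 9 inward rectifiers lay below 0. The 60-base probes behind these values lie on mm9, for Kcnj12 at chromosome 11, 60884556 to 60884615, and for Kcnj11 at chromosome 7, 53353119 to 53353178 and 53354095 to 53354154. The first 30 bases of each, shown so that the measured stretch of the transcript can be found, were as follows.
Kcnj12: tcaggctgcttgtgaccatgttaacgattc
Kcnj11, brighter probe: agaaaaagaaatattgggaagttcagcctg
Kcnj11, further probe: agtgtggctgtggcgaaggccaagcccaag

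The 2-pore channels went both ways. Kcnk3, an acid-sensitive leak channel, stood at -0.89, -0.89, -1.07 and -1.01 in the control samples and at -1.36, -1.75, -1.47 and -1.47 in the high-fat samples. The gap between the diets, from -1.07 to -1.36, was wider than the range within the control group. Its difference was -0.55 ± 0.12, a 1.46-fold lower signal (adjusted p = 0.429). Kcnk1, a weakly rectifying leak channel, stood at -0.19, 0.058, 0.24 and 0.18 in control and at 0.29, 0.50, 0.54 and 0.56 in high-fat samples. These groups did not overlap either, and the difference was 0.40 ± 0.13 (adjusted p = 0.739). The mechanosensitive channel Kcnk10 differed by 1.06 ± 0.47, with high-fat levels of -4.17, -1.90, -2.94 and -2.50 against control levels between -4.52 and -3.51. High-fat replicate 1 lay inside the control range and the other 3 above it. Kcnk5 differed by 0.59 ± 0.34 and exceeded background on 3 of 4 control arrays and on all 4 high-fat arrays. Kcnk16, the 2-pore channel known for its high expression in islets, differed by 0.25 ± 0.18, with an interval from -0.16 to 0.65, and its lowest sample was control replicate 3 at 0.39. Kcnk9, a relative of Kcnk3, differed by 0.030 ± 0.27. The other 5 genes of the subfamily (Kcnk4, Kcnk6, Kcnk12, Kcnk13 and Kcnk15) ranged from -0.14 ± 0.24 to 0.073 ± 0.26. The Kcnk3 probe lies at chromosome 5, 30927090 to 30927149 of mm9, on the plus strand, and begins as follows.
Kcnk3: ctgggaaatccttaggtggaaggaatctgg

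**Figure D2:**
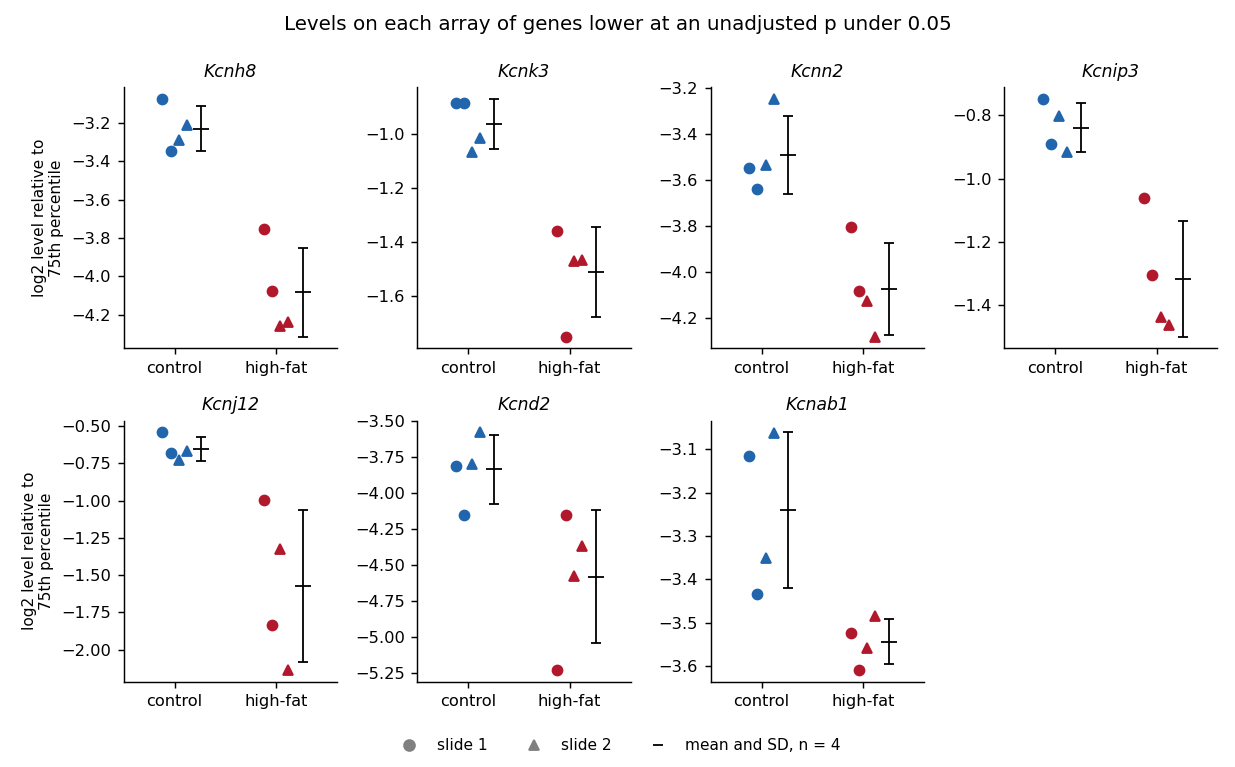
Levels on each of the 8 arrays (vertical axis, log2 relative to the array's 75th percentile, a separate scale in each panel) for 7 genes lower at an unadjusted p under 0.05; circles are slide 1, triangles slide 2, and the bar is the mean and SD of 4 arrays. In each panel the 4 high-fat arrays lie below the 4 control arrays, with the narrowest gaps for Kcnd2 (-4.15 against -4.16) and Kcnab1 (-3.43 against -3.48).

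The Kv channels repolarise the membrane after an action potential. Kcnd2, an A-type channel of brain and heart, stood at -3.81, -4.15, -3.80 and -3.58 in control and at -5.23, -4.16, -4.58 and -4.36 in high-fat samples. Its difference was -0.75 ± 0.24 (adjusted p = 0.739), and 1 of its high-fat arrays was not well above background. The separation was narrow: control replicate 2 and high-fat replicate 2, on the same slide, had nearly the same level. The related Kcnd1 had 3 kept probes that disagreed in sign, at 0.21 ± 0.26, 0.29 ± 0.41 and -0.49 ± 0.32. Kcna5, a delayed rectifier, differed by -0.075 ± 0.16, and Kcnc2, a fast-closing channel of rapidly firing neurons, by -0.54 ± 0.38 with 3 of 4 high-fat arrays well above background. Of the other genes of the subfamily described here, differences ranged from -0.87 ± 0.39 for Kcnc4, measured on 4 control and 2 high-fat arrays, to 0.10 ± 0.19 for Kcna4. Of all 16 Kv genes 12 lay below 0.

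Among the silent Kv subunits, Kcns3 was mostly not above background in the control samples, so its difference has no exact size. Its levels were -6.94, -5.39, -6.04 and -4.77 in control and -5.65, -3.03, -3.56 and -3.58 in high-fat samples. Only 1 control array and 3 high-fat arrays exceeded background, the diets overlapped, and the difference of 1.83 ± 0.64 had an adjusted p of 0.783. Kcng3 was well above background on 3 control arrays and 1 high-fat array. With every array in the fit, it differed by -0.48 ± 0.28. Its high-fat values were mostly not above background, so this difference has no exact size either. Kcnf1 had a pair of probes of opposite sign, -0.25 ± 0.30 for the brighter and 0.36 ± 0.21 for the other.

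Of the ether-a-go-go channels, voltage-gated channels that include the ERG type of heart and islets, Kcnh8 had the smallest p of the whole family. It stood at -3.08, -3.35, -3.29 and -3.21 in the control samples and at -3.76, -4.08, -4.26 and -4.24 in the high-fat samples. The groups did not overlap, and the difference was -0.85 ± 0.14, a 1.80-fold lower signal (adjusted p = 0.287). The other Kcnh8 probe, on the same chromosome and close by, gave a smaller difference of -0.31 ± 0.16. Its control levels ran from -3.95 to -3.35 and its high-fat levels from -4.20 to -3.80, so the diets overlapped, and on slide 1 it differed by 0.031. Both probes lie on the minus strand of mm9, at chromosome 17, 53092867 to 53092926 and 53093300 to 53093359, whereas RefSeq places Kcnh8 on the plus strand of GRCm38.p6. Such an opposite strand was found for 165 of 23448 probes that could be compared (0.704%), and these were the only 2 of 99 potassium channel probes. Whether these probes read the Kcnh8 transcript was not tested, and their values are those of the probes that the array's design names Kcnh8. The first 30 bases of both are given for that check.
Kcnh8, brighter probe: atctattttcctttttgtgaaggcagagga
Kcnh8, other probe: ataaacgtataatatcagcacacaagggcc

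Of the ERG-type channels, Kcnh2 stood between -0.93 and -0.67 in control and between -1.05 and -0.65 in high-fat samples, and the difference was -0.044 ± 0.12 with an interval from -0.32 to 0.23. Kcnh6 differed by -0.34 ± 0.37 with an interval from -1.17 to 0.50, and by -0.78 on slide 1 and 0.11 on slide 2, with control levels from -1.74 to -0.21 and high-fat levels from -2.04 to -0.84. Kcnh1 and Kcnh4 lay above 0, at 0.45 ± 0.32 and 0.39 ± 0.24, and Kcnh3 and Kcnh5 at 0.0026 ± 0.27 and -0.057 ± 0.33. Of the KCNQ channels, Kcnq1, which is linked to type 2 diabetes in human genetics, differed in sign between the slides. The difference was 0.42 ± 0.43 over 8 arrays, 1.32 on slide 1 and -0.48 on slide 2, and its SD was 0.89 in control and 0.43 in high-fat samples. All 7 kept acinar markers also differed in sign between the slides, with medians of 0.57 on slide 1 and -0.36 on slide 2. The part of acinar cells in the Kcnq1 signal was not tested.

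Calcium-activated channels shape the bursts of electrical activity. Kcnma1, the large-conductance channel, had 4 kept probes, with differences of 0.092 ± 0.10, 0.087 ± 0.12, 0.033 ± 0.097 and -0.039 ± 0.20. The interval for the brightest ran from -0.15 to 0.33. The small-conductance channel Kcnn2 stood at -3.55, -3.64, -3.54 and -3.25 in control and at -3.81, -4.08, -4.13 and -4.28 in high-fat samples, without overlap. Its difference was -0.58 ± 0.14 (adjusted p = 0.553). The related Kcnn3 lay on the other side of 0, at 0.31 ± 0.17 for the brighter and 0.30 ± 0.21 for the other probe, and Kcnn4 differed by 0.16 ± 0.30. The sodium-activated channel Kcnt1 differed by -0.23 ± 0.43 and Kcnu1, a channel of sperm grouped here by its symbol prefix, by -0.19 ± 0.19. The difference between Kcnn2 and Kcnn3 itself was not tested.

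**Figure D3:**
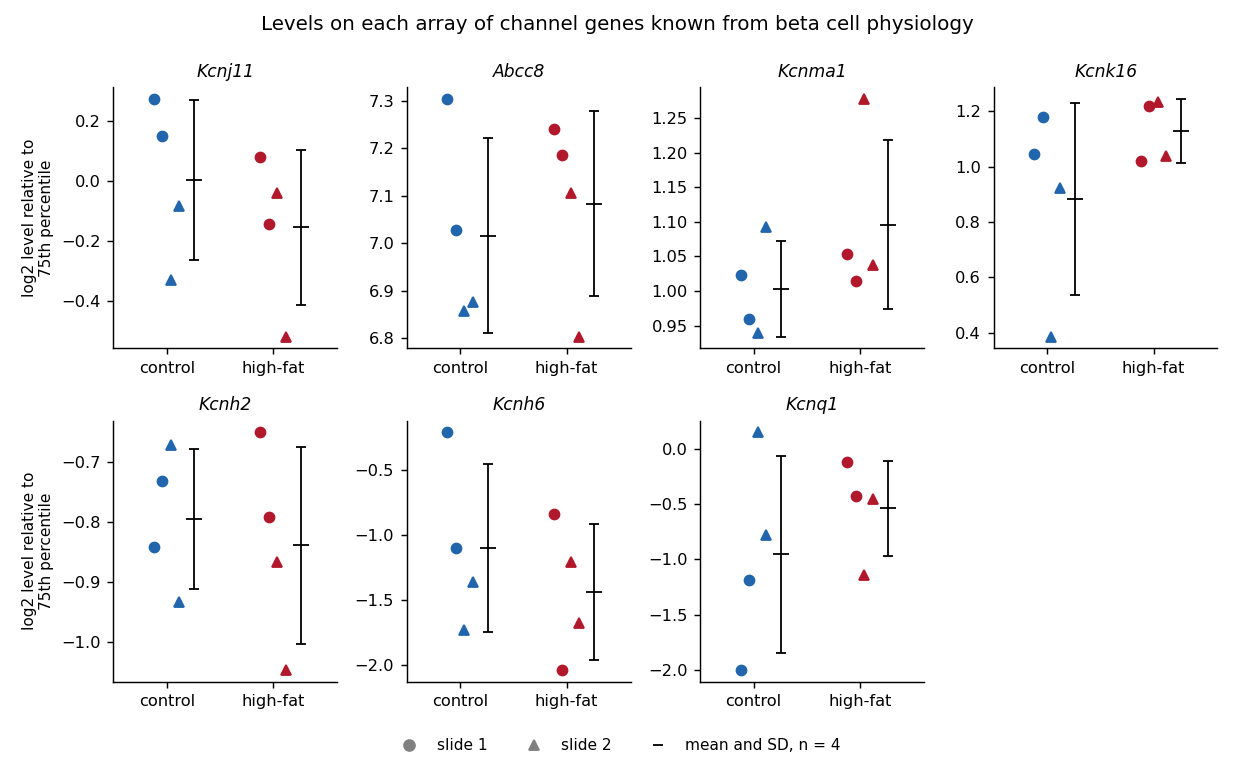
Levels on each of the 8 arrays (vertical axis, log2 relative to the array's 75th percentile, a separate scale in each panel) for 7 channel genes known from beta cell physiology; circles are slide 1, triangles slide 2, and the bar is the mean and SD of 4 arrays. The diets overlap in every panel, from Kcnh6 with a difference of -0.34 to Kcnq1 with 0.42.

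Accessory subunits gave 2 lower genes and 1 higher. Kcnip3, a calcium-binding protein of A-type channels that also binds DNA, stood at -0.75, -0.89, -0.80 and -0.92 in control and at -1.06, -1.30, -1.44 and -1.46 in high-fat samples. The groups did not overlap, and the difference was -0.48 ± 0.12 (adjusted p = 0.564). Its dimmer probe, well above background on 7 arrays, gave -0.049 ± 0.35. Kcnip2, of the same family, differed by 0.53 ± 0.19 (adjusted p = 0.783), with high-fat levels of -2.88, -2.83, -2.96 and -3.26 against control levels between -3.87 and -3.16, so high-fat replicate 4 lay within the control range. Kcnip1 differed by 0.17 ± 0.17. Kcnab1, a beta subunit of the Kcna channels, stood at -3.12, -3.43, -3.35 and -3.06 in control and at -3.52, -3.61, -3.56 and -3.48 in high-fat samples, with a difference of -0.30 ± 0.12 (adjusted p = 0.800). Kcnmb2, a subunit of the large-conductance channel, differed by -0.035 ± 0.12. The other accessory genes differed by 0.36 ± 0.25 (Kcnab3), -0.17 ± 0.33 (Kcne3), -0.25 ± 0.15 (Kcnip4) and -0.28 ± 0.23 (Kcnmb4).

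Of the 20 genes with more than 1 kept probe, the probes of 17 had the same sign and those of 3 did not (Kcnd1, Kcnf1 and Kcnma1). At the level of probes, 10 of 87 were lower and 3 higher at an unadjusted p under 0.05, against 5.8% of all kept probes in either direction. The 2 lower probes that do not stand for their gene were singled out after their values were seen. A Kcna6 probe differed by -0.97 ± 0.34 where the brighter probe of that gene gave -0.13 ± 0.23. A Kcnmb4 probe differed by -1.34 ± 0.41, well above background on 4 control arrays and 1 high-fat array, where the brighter probe gave -0.28 ± 0.23. The high-fat values of this Kcnmb4 probe were mostly not above background, so its difference has no exact size.

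Partners of the channels were taken from a list of 39 genes for accessory proteins, pacemaker channels, the sodium pump and potassium transporters, of which 36 were kept. At an unadjusted p under 0.05, 1 was lower and 1 higher (2.78% each), which is near the 3.25% and 2.51% of all genes, and the median difference was -0.018. The lower gene was Dpp10, a membrane protein that binds Kcnd channels and speeds their gating. Dpp10 stood at -0.25, -0.30, -0.32 and -0.17 in control and at -0.73, -1.27, -1.13 and -1.37 in high-fat samples. The groups did not overlap, the difference was -0.86 ± 0.15 (adjusted p = 0.335), and a further Dpp10 probe gave -0.64 ± 0.22. Its relative Dpp6 had probes at -0.049 ± 0.15 and, dimmer, at -0.97 ± 0.45. The higher gene was Tmem38a, an intracellular cation channel of the endoplasmic reticulum, at 0.39 ± 0.14. The sodium pump subunit Atp1b1 differed by 0.21 ± 0.16, and the pacemaker channel Hcn2 by 0.26 ± 0.17. A dimmer probe of Fxyd2, singled out after its values were seen, differed by -0.92 ± 0.24 without overlap. The brighter Fxyd2 probe, which stands for the gene, gave -0.38 ± 0.25 with overlap.

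The slide is the only batch that the files name, so the diets were compared within each. The 8 genes counted as lower lay below 0 on both slides, which the lack of overlap fixes in advance. Over all 64 genes, 38 had the same sign on both, and the median was 0.0083 on slide 1 and -0.18 on slide 2, against 0.028 and -0.046 over all genes. Within slide 1, 5 genes were lower and 5 higher at an unadjusted p under 0.05, and within slide 2, 9 were lower and 2 higher. Over all genes the lower and higher shares were 2.48% and 5.16% on slide 1 and 4.41% and 2.99% on slide 2. With the slide as a block, 10 genes were lower and 4 higher, against 3.65% and 3.53% of all genes, and none passed after adjustment. Kcnip2 differed by 0.96 on slide 1 and 0.10 on slide 2, and Kcnn2 by -0.35 and -0.81. Kcnj3, whose values are shown here because it stands apart in the plot of the slides, differed by 1.37 and -0.75 and exceeded background on 2 of 4 control arrays and on all 4 high-fat arrays.

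**Figure D4:**
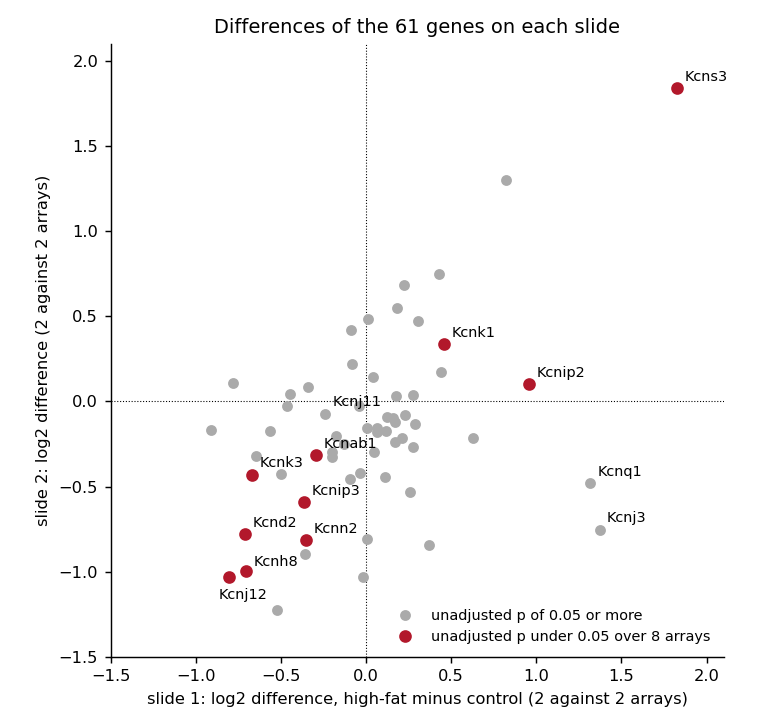
Log2 difference, high-fat minus control, of 61 of the 64 genes on slide 1 (horizontal axis) and slide 2 (vertical axis), each from 2 against 2 arrays. The 10 genes with an unadjusted p under 0.05 over all 8 arrays (red) lie in the lower left or upper right, while Kcnq1 (1.32 and -0.48) and Kcnj3 (1.37 and -0.75) have opposite signs.

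The size of the differences depended on how the background was treated. With normexp correction as planned, 4 of the 7 lower genes described came out above 0 (Kcnh8 at 0.42, Kcnn2 at 0.49, Kcnd2 at 0.50 and Kcnab1 at 0.48), and no member was below the unadjusted threshold. That correction moved the median of all genes by 0.13, and its fit on high-fat replicate 2 includes 7 smeared spots, where the local background reached 261989. Without such spots all 7 lay below 0 and 3 stayed at an unadjusted p under 0.05, and 6.25% of all members were lower against 1.58% of all genes. A fit to the values that the authors' deposited table gives put 4 of 64 members (6.25%) lower, against 2.39% of all genes, and all 7 genes below 0. In that table the 4 genes with levels under -3 were closest to 0, with -0.07 for Kcnh8, -0.04 for Kcnn2, -0.05 for Kcnd2 and -0.02 for Kcnab1. Kcnk3 differed there by -0.215, Kcnip3 by -0.21 and Kcnj12 by -0.35. With quantile normalization and with median scaling all 7 lay below 0 and 6 were at an unadjusted p under 0.05. Median scaling moved the median of all genes by 0.074.

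**Figure D5:**
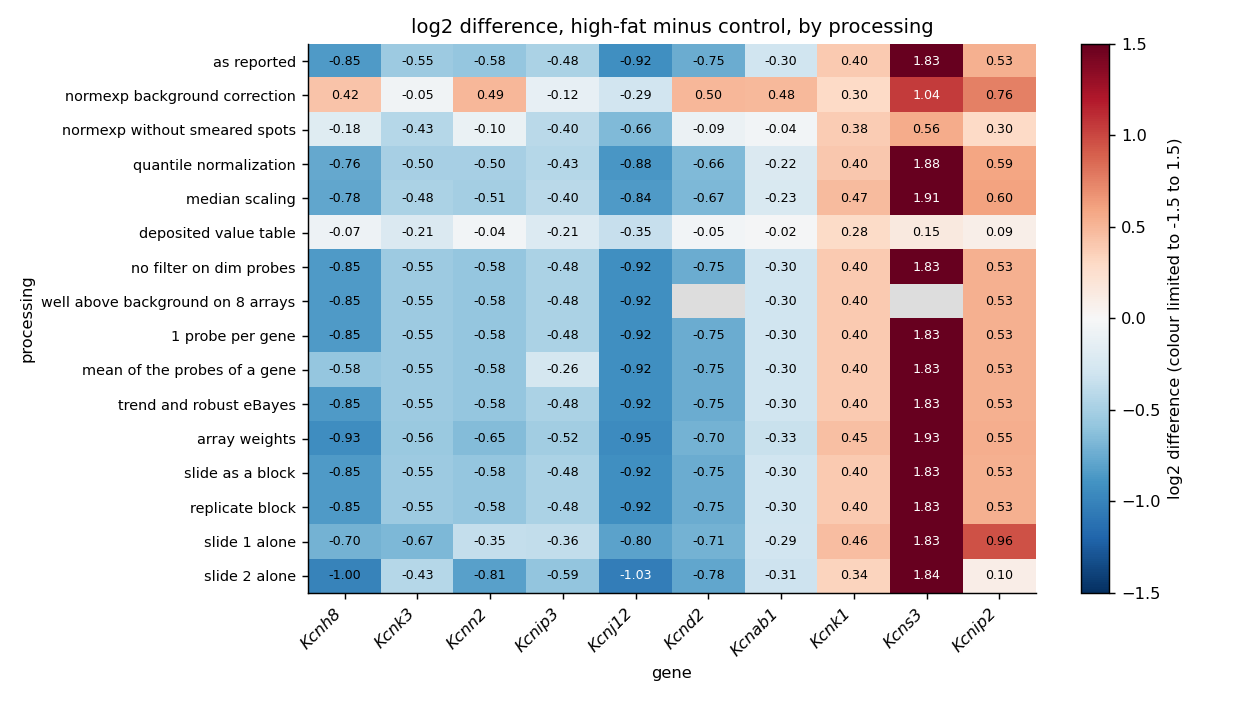
Log2 difference, high-fat minus control (number and colour, blue below and red above 0), of 7 lower and 3 higher genes (columns) under the processing used here and 15 others (rows); grey marks a gene that the stricter filter leaves out. The 7 lower genes lie below 0 in every row except that of the planned normexp correction, where only Kcnk3, Kcnip3 and Kcnj12 do. Those are palest in that row, while Kcnh8, Kcnn2, Kcnd2 and Kcnab1 turn red there and are pale in the deposited value table.

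Markers of other islet cells differed alongside the lower channel genes. Of 7 kept alpha cell markers 4 were lower and 1 higher at an unadjusted p under 0.05, and of 6 delta and PP cell markers 4 were lower. The lower shares were 57.1% and 66.7%, against 3.25% of all genes and 12.5% of the channel genes. The delta cell factor Hhex differed by -0.60 ± 0.11 and the delta cell hormone Sst by -0.39 ± 0.10. The alpha cell hormone Gcg differed by -0.16 ± 0.16 and the PP cell hormone Ppy by -0.035 ± 0.24. The summed signal of the alpha list, in multiples of the array's 75th percentile, ranged from 279.6 to 380.5 in control and from 314 to 352.4 in high-fat samples. That of the delta and PP list ranged from 362.5 to 471 and from 310.7 to 365, and these 3 hormones were well above background on all 8 arrays. Beta cell markers gave 1 lower and 1 higher gene of 10, with sums from 801.3 to 1145 and from 878.1 to 1167. Acinar markers gave 0 lower and 0 higher genes of 7, with sums from 1185 to 2271 and from 1405 to 2508. The sums come from different probes, so those of different lists are not compared. The median difference of the acinar list was 0.57 on slide 1 and -0.36 on slide 2. The part of these other cells in the lower channel signals was not tested.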

How the data were processed

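Total RNA was labelled with Cy3 and hybridised to Agilent arrays, per the labels' protocols. The deposited scanner files hold intensity values made by the authors with Feature Extraction 11.5.1.1, per the file headers, with probe positions on mm9. The authors' deposited table gives 1 log2 value per probe and array. The submitters' processing notes name limma for it, and its scale and centring are not given in the sources used here. Here log2 of the processed signal minus each array's 75th percentile was used, without control spots and spots marked as outliers (125 to 228 per array), and spots of a probe were averaged. Probes that exceeded background on 4 or more arrays were fitted by diet with limma 3.58.1 in R 4.3.3 (lmFit, eBayes), with Benjamini-Hochberg adjustment over all 26076 probes. A gene is represented by its kept probe with the highest mean, which left 19994 genes, counted by the array's own gene names, which for some probes are transcript identifiers. All 92 channel symbols matched RefSeq. All counts and medians include every member gene; values of some single genes are not reported here. The procedure was tested on simulated data.

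The members, the partner and marker lists and the alternatives were chosen with earlier results of these data known. Named genes included a set of channels chosen from textbook knowledge and earlier results. Added to these were the 8 lower and 6 higher genes with the smallest p and the smallest p of each subfamily. Genes whose probes differ in sign were named too, as were Abcc8 and partner genes at an unadjusted p under 0.05. Alternatives were normexp with an offset of 50, both with all spots and leaving out spots with a local background over 4 times the array's median, quantile and median scaling, the deposited table, other filters and probe rules, other variance models, a block for slide or for replicate number, single slides, and each array left out. The correlations of the deviations of same-numbered samples of the 2 diets were 0.21, 0.40, -0.0041 and 0.30 over 19864 genes. Those of differently numbered samples ran from -0.29 to 0.16. Samples numbered 1, 2 and 4 thus correlated best with their own number, and those numbered 3 did not. Same-numbered samples also lay side by side on a slide. The labels state no pairing, so the main fit used none, and the block for replicate number is an alternative. A shared effect of the number was not tested.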

Additional observations from a re-analysis of the deposited data

Results flagged for a closer look

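Within groups of 4, 3 of the 66 gene and diet combinations examined had an array whose gap to its nearest neighbour made up more than 0.829 of the group's range, where chance gives about 1 in 20. Kcnmb2 in high-fat replicate 4 stood at 0.52 against 0.71 to 0.74 in the other high-fat samples, a gap of 0.842 of the range. Kcnma1 in high-fat replicate 3 stood at 1.28 against 1.01 to 1.05 (0.85 of the range). Kcnj5 in high-fat replicate 4 stood at -4.18 against -4.92 to -4.80 (0.85), so its difference of -0.46 rests on the other 3 high-fat samples.

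Among the probes left out for low signal, 5 were well above background on 1 high-fat array and no control array. Those described here were probes of Kcnc1, Kcnt2, Kcnh7 and Kcnj8, each on 1 array, and 3 further probes were so on 1 control array only.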

How the results depend on the processing

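No member passed at an adjusted p under 0.05 under any of the 23 alternatives. The 3 genes Kcnk3, Kcnip3 and Kcnj12 were among the 11 of 33 named and partner genes whose sign held in all of them. For these 3 genes most alternatives could not turn the sign. The blocks, the trend and robust variance model, the other filters and 1 probe per gene leave a gene's difference as it is. Because their diets do not overlap, array weights, single slides and leaving out arrays fix the sign too. Their differences closest to 0 were -0.050 for Kcnk3, -0.12 for Kcnip3 and -0.29 for Kcnj12, all with the planned normexp correction. The cause of the shifts below was not tested. With the planned normexp correction the counts at an unadjusted p were 0 lower and 0 higher, and the medians 0.39 for the family, 0.36 for Kv, 0.69 for silent, 0.15 for ether-a-go-go, 0.57 for inward rectifier, 0.30 for 2-pore, 0.50 for calcium- or sodium-activated and 0.36 for accessory genes. The sign then turned for Kcnk16 (-0.017), Kcna5 (0.43), Kcnc2 (0.71), Kcnd2 (0.50), Kcnab1 (0.48), Kcnma1 (-0.13), Kcnn2 (0.49), Kcnh2 (0.15), Kcnh6 (0.061), Kcnh8 (0.42), Kcnj5 (0.62), Kcnj6 (0.60), Kcnf1 (0.20), Kcng3 (0.69), Abcc8 (-0.37) and Tmem38a (-0.068). Without smeared spots 4 genes were lower, the medians were 0.016 for the family, -0.054 for inward rectifiers, 0.071 for calcium- or sodium-activated and -0.032 for accessory genes, and Kcna5 (0.0004) and Kcnj5 (0.023) turned. The deposited table gave 4 lower genes and medians of -0.016 for inward rectifiers and -0.022 for accessory genes. Quantile normalization turned Abcc8 (-0.057), median scaling turned Kcnmb2 (0.038) and Kcnh2 (0.029) and gave 5 higher genes, array weights gave 5 higher and turned Kcna5 (0.0020), and the mean of a gene's probes turned Kcnf1 (0.059). The filter of 8 arrays gave a median of 0.092 for calcium- or sodium-activated genes. With the replicate block 11 genes were lower and 5 higher, where 5.25% and 3.94% of all genes were. Each number holds both diets equally, so this block changes the p-values but could not change the sign of a named gene. The numbers are no known pairing, and not every sample correlated best with its own number. Slide 1 gave 5 lower, 5 higher and a median of 0.0083, with Kcna5 (0.0045), Kcnip1 (-0.087), Kcnmb2 (0.17) and Kcnh2 (0.065) turned. Slide 2 gave medians of -0.48 for KCNQ and -0.30 for accessory genes, with Kcnk9 (-0.099), Kcnq1 (-0.48), Kcnd1 (-0.21) and Kcnh6 (0.11) turned. With each array left out, 7 to 11 genes were lower and 1 to 4 higher (1 without control replicate 1 or high-fat replicate 2). The family median ran from -0.13 to 0.0079 and that of accessory genes from -0.23 to -0.045. Signs turned for Kcnk9 (-0.12 to 0.23), Kcnn4 (-0.046 to 0.40), Kcna5 (-0.18 to 0.031), Kcnmb2 (-0.094 to 0.043) and Kcnh2 (-0.11 to 0.025). Signal over background limits the dim genes: 11 of the 64 were not well above background on every array.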
